A study of Mus musculus with 4 samples.

Results

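Chromatin accessibility was examined at the 4 Hox gene clusters of murine long-term hematopoietic stem cells (LT-HSCs), using 38 listed Hox genes: 10 of HoxA on chromosome 6, 10 of HoxB on chromosome 11, 9 of HoxC on chromosome 15 and 9 of HoxD on chromosome 2. Members were the peaks overlapping the GRCm38 body of a listed gene or the 1000 bp upstream of it, and 68 of 93513 peaks met this rule, with 21 in HoxA, 18 in HoxB, 17 in HoxC and 12 in HoxD. The series holds 4 single-cell ATAC-seq (scATAC-Seq) samples of C57BL/6JRj mice, with 1 sample per group: Clca3a1_high and Clca3a1_low LT-HSCs, separated by antibody at an age of 22 to 28 months, and unseparated LT-HSCs from young donors (3 to 4 months) and from old donors (22 to 28 months). CLCA3A1 is found on the cell surface, and no allele or drug treatment is named in the labels. Each sample was a pool of 10000 sorted cells, 2500 from each of 4 mice, so single mice cannot be told apart.

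The labels of the Clca3a1_high and Clca3a1_low samples both point to the table of peaks used here. Its 1454 cell barcodes end in suffix 1 (818 cells, barcode set 1) or suffix 2 (636 cells, barcode set 2), and the labels do not say which suffix belongs to which sample. The cells were therefore treated as 1 pooled sample. The value of each set is given beside the pooled value, and a ratio between the sets carries no direction between groups. With 1 sample per group there was no replicate check, no test was made, and all 95% intervals cover counting error only. These are also too narrow, because 88.7% of the values above 0 were even, each DNA fragment usually bringing a pair of cut sites. Set 1 held 13050952 counts (median 13358.5 per cell) and set 2 held 9820094 (median 12755), cells ranged from 224 to 136173 counts, and 0 barcodes were shared between the sets.

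The sort was compared with marker genes by their promoters. Promoters of 5 of 7 LT-HSC markers were open, that is, had a promoter peak with a count in at least 5% of cells: Mecom in 41.0%, Kit in 34.8%, Hlf in 24.3%, Fgd5 in 12.5% and Procr in 6.95%. Of all protein-coding promoters 59.5% were open, so these counts by themselves say little about the sort. Slamf1 reached 3.85%, and no promoter peak was called at Ly6a. The 3 T cell markers Cd3e, Cd3g and Cd247 had no promoter peak, and 0 of 3 B cell markers were open. Erythroid (3 of 4 open, Hba-a1 at 0), megakaryocyte (3 of 3), stromal (3 of 4, Cdh5 at 0) and myeloid markers (1 of 4, Mpo and S100a8 at 0) were accessible as well.

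Hox genes encode homeodomain transcription factors that give cells their position along the body axis. Mammals carry them in the HoxA, HoxB, HoxC and HoxD clusters, in which genes of like position form paralogue groups: groups 1 to 3 are called anterior here, 4 to 8 central and 9 to 13 posterior. In the embryo the clusters are opened from the anterior towards the posterior end, with MLL (trithorax) complexes keeping genes active and Polycomb complexes keeping them silent. In blood, genes of HoxA and HoxB act in stem and progenitor cells. HOXA9 with its cofactor MEIS1 drives leukemia when misexpressed, and HOXB4 expands stem cells when overexpressed.

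The sequences upstream of the gene starts are shown first, since open chromatin at gene starts often goes with CpG-rich DNA. RefSeq (GRCm38.p6) gave upstream sequence for 22 of the 38 genes. Over the 250 bases upstream of the start the median GC content was 59.2%, against 52.4% over the 32841 promoters of the table, and the observed over expected ratio of CpG dinucleotides was 0.76 against 0.37. Methylation was not measured. CpG dinucleotides are in capitals in the stretches of Hoxa5, Hoxa9, Hoxb4, Hoxb8, Hoxd4 and Hoxd13, chosen after their values were seen as examples of rich and poor CpG content in promoters that were open and in promoters that were not.
Hoxa5 (chr6:52204588-52204837, minus strand): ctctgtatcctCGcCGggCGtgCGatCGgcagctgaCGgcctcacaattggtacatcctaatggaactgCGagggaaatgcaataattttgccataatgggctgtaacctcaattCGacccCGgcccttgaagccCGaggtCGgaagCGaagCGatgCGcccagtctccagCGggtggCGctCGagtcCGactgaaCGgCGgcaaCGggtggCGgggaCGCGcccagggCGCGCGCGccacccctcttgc
Hoxa9 (chr6:52227371-52227620, minus strand): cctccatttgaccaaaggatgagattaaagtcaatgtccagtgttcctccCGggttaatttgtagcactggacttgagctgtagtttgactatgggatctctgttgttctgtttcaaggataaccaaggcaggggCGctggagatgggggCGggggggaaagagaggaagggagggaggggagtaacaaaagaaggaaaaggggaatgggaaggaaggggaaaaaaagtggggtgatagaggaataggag
Hoxb4 (chr11:96318017-96318266, plus strand): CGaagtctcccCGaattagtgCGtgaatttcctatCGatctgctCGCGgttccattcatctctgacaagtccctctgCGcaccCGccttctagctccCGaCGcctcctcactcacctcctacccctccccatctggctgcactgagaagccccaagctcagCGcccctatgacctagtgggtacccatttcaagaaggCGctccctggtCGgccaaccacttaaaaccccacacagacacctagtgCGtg
Hoxb8 (chr11:96281655-96281904, plus strand): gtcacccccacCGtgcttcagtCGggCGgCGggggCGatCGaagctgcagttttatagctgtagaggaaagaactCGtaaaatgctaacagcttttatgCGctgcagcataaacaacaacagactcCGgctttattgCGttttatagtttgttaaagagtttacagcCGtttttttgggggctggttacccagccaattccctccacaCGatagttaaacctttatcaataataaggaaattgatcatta
Hoxd4 (chr2:74721728-74721977, plus strand): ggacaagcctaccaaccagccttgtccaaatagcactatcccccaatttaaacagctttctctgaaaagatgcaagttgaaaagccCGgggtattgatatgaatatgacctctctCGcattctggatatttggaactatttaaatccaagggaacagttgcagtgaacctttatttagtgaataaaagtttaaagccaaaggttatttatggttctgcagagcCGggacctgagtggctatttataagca
Hoxd13 (chr2:74667975-74668224, plus strand): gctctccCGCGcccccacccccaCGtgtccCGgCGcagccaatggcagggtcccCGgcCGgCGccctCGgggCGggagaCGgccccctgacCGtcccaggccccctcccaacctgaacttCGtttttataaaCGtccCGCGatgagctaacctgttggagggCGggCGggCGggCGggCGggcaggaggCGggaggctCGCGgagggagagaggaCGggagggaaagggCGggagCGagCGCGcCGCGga
The stretch of Hoxa5 held 28 CpGs, that of Hoxb4 held 14, that of Hoxb8 held 12 and that of Hoxa9 held 3, and all 4 promoters were open by the 5% criterion. The stretch of Hoxd13 held 31 CpGs and that of Hoxd4 held 3, and neither promoter was open. In Hoxd3 the RefSeq start was 27626 bp from the start at which openness was scored, and in Hoxa7 1068 bp from it. In the 10 open genes with a sequence the median CpG ratio was 0.78, and in the 12 others it was 0.64. The open ones were all of HoxA or HoxB and most of the others of HoxD, so openness and cluster cannot be told apart here. Of HoxB only Hoxb1, Hoxb4 and Hoxb8 had a sequence, and of HoxC only Hoxc4. The stretch of Hoxb8 lay outside the peaks: the promoter peak of this gene ended upstream of it.

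Position and paralogy are shared by the miR-10 and miR-196 microRNAs of the clusters. Their mature 5p arms are shown for their common seeds (bases 2 to 8, in capitals).
miR-196b-5p: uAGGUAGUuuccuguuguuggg
miR-196a-5p: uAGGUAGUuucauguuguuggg
miR-10a-5p: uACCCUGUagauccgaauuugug
miR-10b-5p: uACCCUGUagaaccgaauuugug
miR-196a and miR-196b have the same seed and are known to target Hox transcripts, and miR-10a and miR-10b share another. The hairpin of Mir196b lay inside an accessible peak (chr6:52228788-52231169) within the annotated body of Hoxa9, which had 25.7 CPM in set 1, 22.7 CPM in set 2 and a count in 14.3% of cells. CPM stands for the counts of a peak per 1000000 counts in peaks of that set. The hairpins of Mir10a, Mir10b, Mir196a-1 and Mir196a-2 lay in no peak, at 763, 872, 675 and 2449 bp from the nearest one. HoxC also holds Mir615, whose 5p and 3p arms lay in no peak, at 351 and 394 bp from the nearest one. A microRNA's own start site can lie far from its hairpin, so these distances do not show whether it was made.

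To ask which clusters were accessible, the counts of all member peaks were summed by cluster. HoxA carried 49.98% of the Hox counts, HoxB 32.5%, HoxC 11.1% and HoxD 6.50%. HoxA had 309 CPM in set 1 (95% Poisson interval 300 to 319) and 283 in set 2 (273 to 294). HoxB had 223 CPM in set 1 (215 to 231) and 155 in set 2 (147 to 163). HoxC had 69.2 CPM in set 1 and 61.7 in set 2, and HoxD 39.2 and 38.2. The order HoxA, HoxB, HoxC, HoxD was thus the same in both sets, with no overlap of the counting intervals between neighbours. The area in peaks followed the same order, since member peaks covered 31.9 kb in HoxA, 27.5 kb in HoxB, 12.3 kb in HoxC and 7.07 kb in HoxD. Per covered kb HoxA had 9.33 CPM, HoxB 7.04, HoxC 5.35 and HoxD 5.48, against 13.2 CPM per kb over all peaks. HoxC and HoxD differed by less than their counting intervals on this scale, and the values of all 4 clusters were below that of the peaks as a whole.

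Cells were next compared at an equal depth of 4899 counts, by drawing that number from each cell without replacement. This left out 69 cells of set 1 and 76 of set 2. HoxA had a count in 64.0% of cells of set 1 (Clopper-Pearson interval 60.4 to 67.4) and in 59.5% of set 2 (55.3 to 63.6). HoxB had a count in 51.8% (48.2 to 55.4) and 38.8% (34.7 to 42.9), and these intervals did not overlap. HoxC was found in 18.6% and 19.8% of cells and HoxD in 12.8% and 13.8%, with overlapping intervals. Without the draw the shares over all cells were 73.2%, 60.2%, 31.8% and 25.8% from HoxA to HoxD. At equal depth a median of 2 Hox peaks had a count per cell in both sets, with quartiles of 1 and 3.

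**Figure D1:**
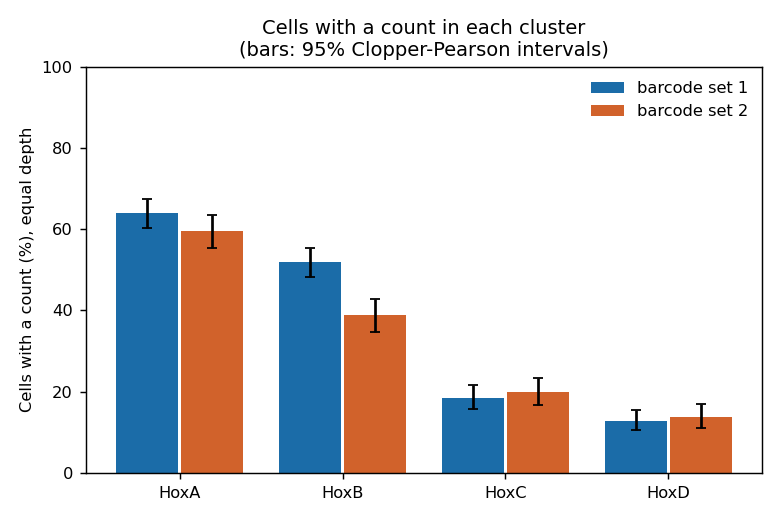
Share of cells with at least 1 count in the member peaks of each Hox cluster (y axis, percent of cells at 4899 counts per cell) in barcode sets 1 and 2, with 95% Clopper-Pearson intervals as bars. HoxB stands at 51.8% in set 1 and 38.8% in set 2, while the intervals of the sets overlap in the other clusters.

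Next, open and closed parts were mapped along each cluster in 5 kb windows, including the peaks between genes. Over both sets together the mean signal was 3.09 CPM per kb in HoxA, 1.54 in HoxB, 0.58 in HoxC and 0.56 in HoxD, against 0.367 over the genome. In HoxA the signal formed a central block, with its highest window at 10.9 CPM per kb by the starts of Hoxa3 and Hoxa7, and with 3 of 20 windows empty. The highest window of HoxB had 7.07 CPM per kb, and 11 of its 35 windows were empty, most of them in the stretch towards Hoxb13. HoxC had 9 empty windows of 24 and a highest window of 3.51 CPM per kb. HoxD had 5 empty windows of 20, and a highest window of 1.62 CPM per kb. Of the windows with counts, set 1 was higher in 21 and set 2 in 3 in HoxB, compared with 10 and 7 in HoxA, 10 and 5 in HoxC, and 8 and 7 in HoxD. The same count was not made over windows of the whole genome. Neighbouring windows can share a peak, so they are not separate observations.

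**Figure D2:**
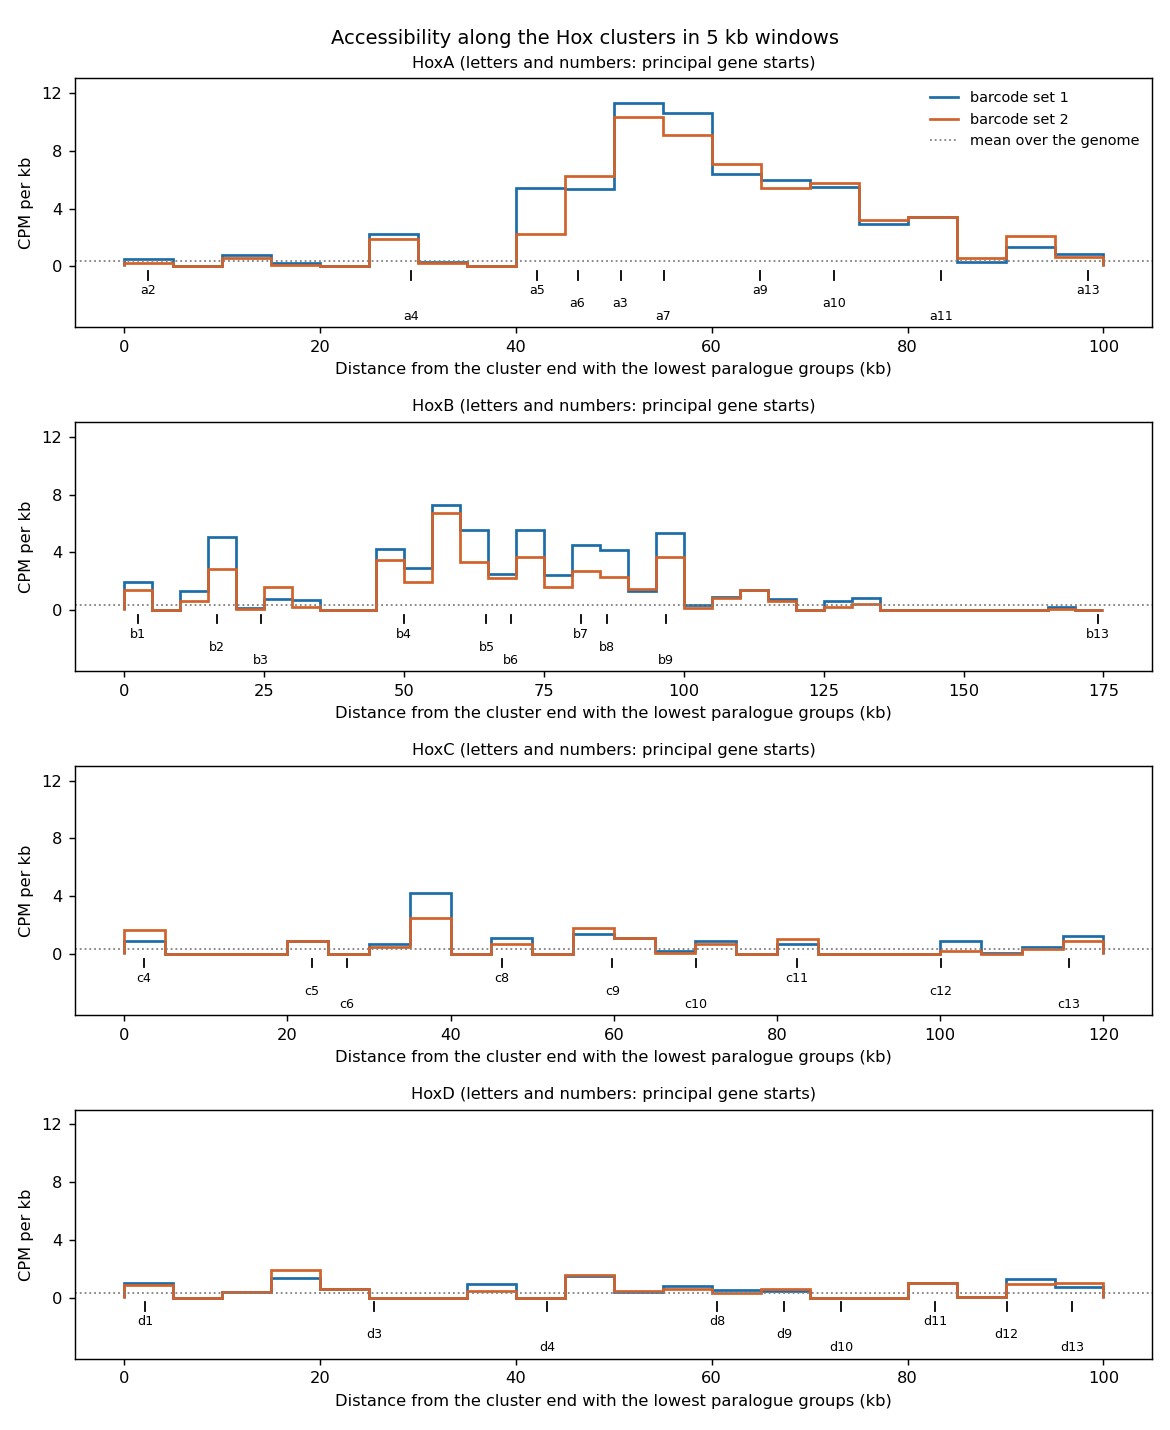
Accessibility (y axis, CPM per kb) in 5 kb windows along each cluster (x axis, kb from the end with the lowest paralogue groups) in barcode sets 1 and 2, with ticks at the starts of the principal transcripts and the genome mean of 0.367 dotted. With both sets pooled HoxA reaches 10.9 CPM per kb around Hoxa3 and Hoxa7 and HoxD 1.62. HoxB, also pooled, is open from Hoxb4 to Hoxb9, with separate windows of 4.12 at Hoxb2 and 1.71 at Hoxb1.

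At the level of promoters, 16 of the 38 genes were open, as against 59.5% of all 21842 protein-coding genes, whose median promoter had a count in 10.5% of cells. A promoter peak was one overlapping the 1000 bp on either side of the start of the principal transcript. HoxA had 8 open promoters of 10, HoxB 7 of 10, HoxC 1 of 9 and HoxD 0 of 9. At 2% of cells the counts were 9, 8, 5 and 6 (64.7% of all genes), and at 10% they were 6, 5, 0 and 0 (50.8%). Of the 31 genes with a promoter peak (67.4% of all genes had one) 15 were below the 5% criterion, and 7 genes had none (Hoxb3, Hoxb13, Hoxc6, Hoxc12, Hoxd4, Hoxd10 and Hoxd12). Of the latter, Hoxb13, Hoxc12, Hoxd10 and Hoxd12 had no peak in their bodies either. No count can be recorded where no peak was called, so these genes have no value rather than a measured 0. By position, 3 of 7 anterior, 8 of 15 central and 5 of 16 posterior genes were open.

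**Figure D3:**
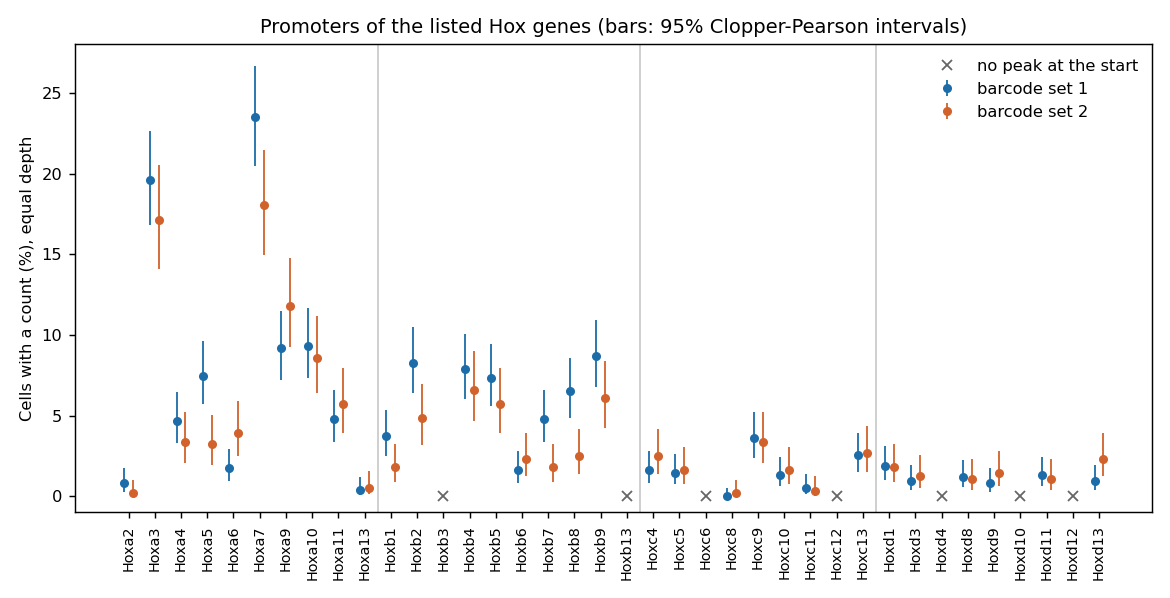
Share of cells with a count in the promoter peaks of each listed Hox gene (y axis, percent of cells at equal depth) in barcode sets 1 and 2, with 95% Clopper-Pearson intervals as bars and crosses for genes with no peak at the start. Hoxa7 is the highest with 23.5% in set 1 and 18.0% in set 2, and no HoxD promoter exceeds 2.32% in either set.

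In order of paralogue group, the HoxA promoters from Hoxa3 to Hoxa11 were all open, and those of Hoxa2 and Hoxa13 were not. The principal start of Hoxa3 lies between those of Hoxa6 and Hoxa7, so it does not extend the open part towards Hoxa2. From 5 to 25 kb from the anterior end, the 5 kb windows had 0 to 0.70 CPM per kb. Hoxa7, a central gene active in progenitors, had the most widely open promoter of the 38. Its peak (chr6:52215327-52222881) was 7555 bp wide, covered the start and exons of Hoxa7, and had 80.3 CPM in set 1, 68.5 in set 2 and a count in 35.5% of cells. With 2950 counts Hoxa7 was also the gene of HoxA with the most counts over its body. The second peak (chr6:52211091-52214625) covered the principal start of Hoxa3 and the 3′ end of Hoxa7, with 54.7 and 52.4 CPM and a count in 29.3% of cells. Since the annotated body of Hoxa3 extends over Hoxa4, Hoxa5 and Hoxa6, and this peak bridges the gap to Hoxa7, such peaks count for both genes.

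Among the posterior genes, the third largest peak (chr6:52231992-52235451) covered the start of Hoxa10, a regulator of stem and progenitor cell growth, with 31.4 CPM in set 1 and 32.8 in set 2. The promoter of Hoxa9, the gene most strongly tied to stem cell self-renewal and leukemia, had 27.4 CPM in set 1 and 31.7 in set 2 (log2 ratio of set 1 over set 2 -0.21, interval -0.43 to 0.02). At equal depth 9.21% and 11.8% of cells had a count there, and these shares overlapped in their intervals. The Hoxa11 promoter, at the posterior edge of the open block, had 16.0 and 15.8 CPM and was open in 10.2% of all cells. Hoxa13, best known for limb and genital tract development, had a promoter peak in 1.58% of cells, and Hoxa2, the anterior end, in 2.06%. Hoxa2 also had the fewest counts of the cluster, 46 in all.

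Hoxa4, a central gene, had 12.7 CPM in set 1 and 10.7 in set 2 at its promoter (8.12% of cells). The promoters of its neighbours Hoxa5 and Hoxa6 differed between the sets in opposite directions. At Hoxa5 (chr6:52203254-52204933) set 1 had 294 counts or 22.5 CPM, and set 2 had 91 counts or 9.27 CPM, a log2 ratio of 1.28 (interval 0.94 to 1.64). With each cell counted once the ratio was 1.15 (0.62 to 1.70), and at equal depth 7.48% of cells of set 1 and 3.21% of set 2 had a count. At Hoxa6 (chr6:52208171-52209861) set 1 had 5.67 CPM and set 2 had 10.8 CPM, a log2 ratio of -0.93 (-1.38 to -0.49). Counted once per cell this was -0.72 (-1.41 to -0.05). These starts lie in the same block, and only the first was higher in set 1.

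To compare the sets over all members, peaks with at least 20 counts were called where the log2 ratio with a pseudocount of 1 CPM was at least 0.5 in either direction. Of the 68 Hox peaks 55 had enough counts, and 13 did not. Set 1 was higher at 17 of the 55 and set 2 at 6, whereas of all 79625 peaks 18.3% were called higher in set 1 and 18.0% higher in set 2. In HoxA 5 of 18 peaks were higher in set 1 and 2 in set 2, in HoxB 9 of 17 and 1, in HoxC 2 of 11 and 3, and in HoxD 1 of 9 and 0. The shares of HoxC and HoxD peaks higher in set 1, 18.2% and 11.1%, were thus at or under that of all peaks, and the share in HoxB was 52.9%. The median log2 ratio was 0.05 in HoxA, 0.51 in HoxB, 0.05 in HoxC and -0.02 in HoxD, compared with 0.02 over all peaks. Among peaks with counts in the range of the Hox peaks, 21.4% were called higher in set 1 and 19.0% in set 2.

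**Figure D4:**
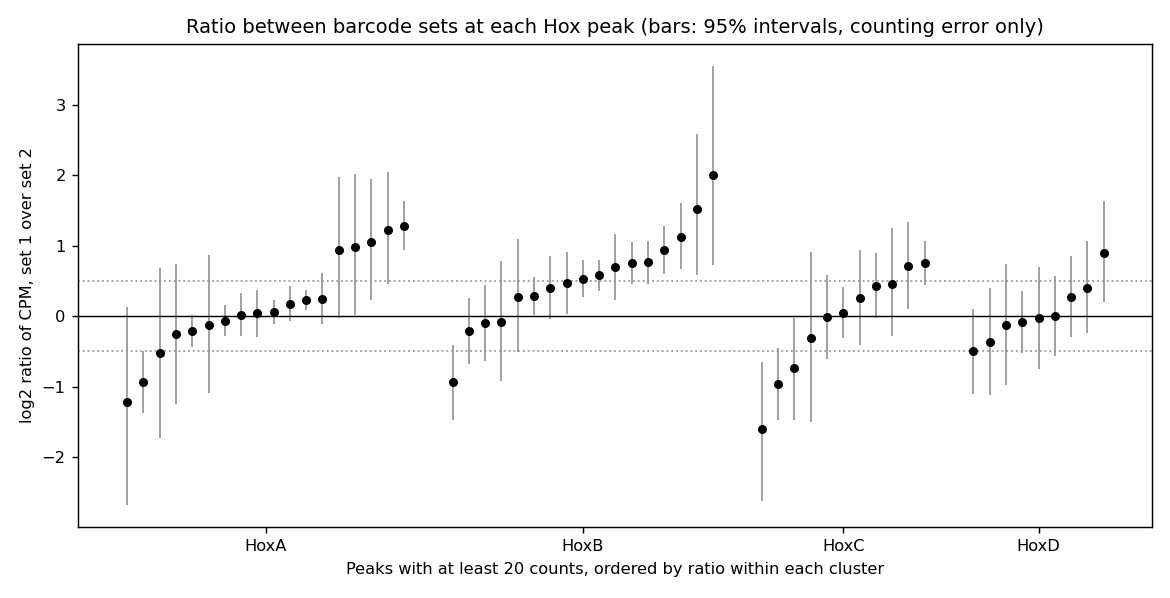
Log2 ratio of CPM of set 1 over set 2 (y axis) at the 55 Hox peaks with at least 20 counts, ordered by ratio within each cluster (x axis), with 95% intervals for counting error and dotted lines at 0.5 in either direction. HoxB lies mostly above 0, with 13 of 17 peaks there, while HoxD has 4 of 9.

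In HoxB, summed CPM was 1.44-fold higher in set 1 (log2 0.53, interval 0.44 to 0.62), whereas HoxA differed by a log2 ratio of 0.13 (0.06 to 0.20), HoxC by 0.17 (0.01 to 0.32, but -0.15 with the principal transcripts only and -0.026 at promoter peaks) and HoxD by 0.04 (-0.16 to 0.23, and -0.12 in thinned cells). In HoxB 13 of 17 peaks had a ratio above 0, as did 51.8% of all peaks. The HoxB counts of set 2 were more concentrated, the 10 cells with the most counts holding 23.0% of them, against 10.98% in set 1. Without the 57 cells over 3 times the median depth the HoxB log2 ratio was 0.64. Other lists moved with the sets as well: summed promoter CPM in sets 1 and 2 came to 244 and 214 for the 7 LT-HSC markers, to 83.6 and 64.8 for the 4 erythroid markers and to 105 and 91.2 for the 3 megakaryocyte markers. The 4 myeloid markers had 44.7 and 42.6 and the 4 stromal markers 61.1 and 63.1. Their part in the HoxB ratio was not tested.

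The largest peak of HoxB (chr11:96291987-96296161) covered the distal annotated start of Hoxb6, with 39.9 CPM in set 1, 26.7 in set 2 and a count in 19.1% of cells. Hoxb6, a central gene of progenitors, had the most counts of the cluster, 956, yet at its principal start the peak reached 4.20% of cells and 5.13 and 5.50 CPM. The gene was thus not open by the criterion, although its distal start was. The log2 ratio of the distal peak was 0.58 (0.36 to 0.80). The peak at the start of Hoxb9 (chr11:96269789-96273175), the posterior edge of the open part, had 26.7 and 18.5 CPM with a log2 ratio of 0.53 (0.27 to 0.80). Hoxb4 (chr11:96318037-96320353) was the exception among the larger promoters, with 23.3 and 19.1 CPM, a log2 ratio of 0.28 (0.02 to 0.55) and a count in 13.7% of cells.

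The remaining open promoters of HoxB all had more CPM in set 1. Hoxb2 had 23.8 CPM in set 1 and 14.1 in set 2 (log2 0.76, 0.46 to 1.06), and Hoxb5, whose expression marks LT-HSCs in reporter mice, had 22.8 and 13.4 (0.76, 0.46 to 1.07). Hoxb8, which blocks myeloid differentiation when overexpressed, had 19.5 and 10.2 CPM (0.93, 0.60 to 1.28). Its promoter peak (chr11:96278469-96281025) ended before the start at 96281905. With 500 bp on either side of the start, 6 HoxB promoters were open, without that of Hoxb8. At equal depth 6.54% and 2.50% of cells had a count at Hoxb8, with intervals that did not overlap. Hoxb7 had 11.6 and 5.30 CPM (1.13, 0.66 to 1.61) and likewise 4.81% and 1.79% of cells. Hoxb1, the anterior end of the cluster, had 9.04 and 6.82 CPM and was not past the threshold. Downstream of the Hoxb5 start another peak (chr11:96305928-96307375) had 9.58 and 5.91 CPM (0.70, 0.24 to 1.17).

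Smaller HoxB peaks were called as well. In the 1000 bp upstream of Hoxb2 a peak of 38 counts had 2.45 and 0.61 CPM (2.00, 0.73 to 3.55). Hoxb3, an anterior gene with a long annotated body, held a pair of peaks with opposite ratios. One in an intron (chr11:96335154-96335583) had 3.52 and 1.22 CPM (1.53, 0.59 to 2.58), and one over an exon (chr11:96340638-96341992) had 3.98 and 7.64 CPM (-0.94, -1.48 to -0.41). The latter was the sole HoxB peak higher in set 2, and counted once per cell its interval included 0 (-0.53, -1.36 to 0.29). Hoxb13, a gene of the hindgut and prostate separated from the rest by a long gap, had no peak.

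HoxA had further small peaks past the threshold. Set 1 was higher at the promoter of Hoxa2 (2.53 and 1.32 CPM), at an intronic peak of Hoxa3 (chr6:52177081-52177591, 3.60 and 1.73 CPM), at the 3′ end of Hoxa6 (chr6:52205619-52206592, 4.52 and 1.93 CPM) and in the body of Hoxa13 (chr6:52259255-52259810, 2.61 and 1.32 CPM). Set 2 was higher at an intronic peak of Hoxa10 of 22 counts (0.61 and 1.43 CPM). The interval of the ratio included 0 at Hoxa2 (-0.03 to 1.98) and at this Hoxa10 peak (-2.68 to 0.14), so these differences were not detectable at this depth. Of the HoxA peaks, 3 of 15 were called higher in set 1 with each cell counted once, against 17.6% of all peaks. In thinned cells 2 of 12 were, against 19.6%.

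In HoxC, Hoxc9 was the sole gene with an open promoter. Its peak (chr15:102975883-102977881) had 11.7 CPM in set 1, 11.3 in set 2 and a count in 7.36% of cells. The largest peak of the cluster (chr15:102998737-103001001) covered a distal exon of Hoxc6 within the long annotated body of Hoxc5, with 21.2 and 12.6 CPM and a count in 10.4% of cells. Its log2 ratio was 0.75 (0.44 to 1.07), but 0.42 (-0.08 to 0.93) with each cell counted once. No peak was called at the principal start of Hoxc6. The third peak by counts lay at the start of Hoxc13, a gene of hair and nail development at the posterior end, with 8.51 and 6.31 CPM and a count in 4.88% of cells, just under the criterion.

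Set 2 was higher at the promoter of Hoxc4, the anterior end of the cluster, with 4.29 and 8.35 CPM (-0.96, -1.48 to -0.45), and this held with each cell counted once (-0.96, -1.72 to -0.21). It was also higher at a peak in Hoxc9 (chr15:102978594-102979101, 1.07 and 3.26 CPM) and at one in Hoxc11 (chr15:102955843-102956490, 2.38 and 3.97 CPM). An intronic peak of Hoxc5 (chr15:102986995-102987834) was higher in set 1, at 5.67 and 3.46 CPM (0.71, 0.11 to 1.34, but 0.50, -0.35 to 1.38, with each cell counted once). With each cell counted once 0 of 10 HoxC peaks were called higher in set 1, against 17.6% of all peaks. Hoxc5 had the most counts of HoxC, 1097, but its body overlaps those of Hoxc6, Hoxc8, Hoxc9 and Hoxc10, whose peaks are counted in it. The promoter of Hoxc5 itself was open in 3.37% of cells, that of Hoxc10 in 3.09%, that of Hoxc11 in 1.17% and that of Hoxc8 in 0.0688%, which was 1 cell. Hoxc12 had no peak.

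HoxD, which is best known for limb and trunk patterning, had no open promoter. Its highest promoter was that of Hoxd1, with 5.29 and 4.38 CPM and a count in 4.33% of cells, followed by Hoxd8 and Hoxd11 with 3.71% each. Hoxd13 (3.44%), Hoxd3 (2.89%) and Hoxd9 (2.48%) were lower. The peak with the most counts lay within the overlapping bodies of Hoxd3 and Hoxd4 (chr2:74715687-74716251), with 7.59 and 8.04 CPM and a count in 5.85% of cells. The others of the 3 largest were the promoter peaks of Hoxd1 and Hoxd11, the latter with 4.90 and 4.89 CPM. One peak over an exon of Hoxd4 (chr2:74727009-74727665) was past the threshold, at 4.75 and 2.55 CPM (0.90, 0.21 to 1.63). Hoxd3 had the most counts, 396, of which those in Hoxd4 are part, while Hoxd10 and Hoxd12 had no peak.

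Just inside the openness criterion of 5% were Hoxa6 (5.36% of cells) and Hoxb1 (5.85%), and just outside it were Hoxc13 (4.88%), Hoxc4 (4.54%), Hoxd1 (4.33%) and Hoxb6 (4.20%). Hox promoters thus formed a continuum around this value. No HoxD promoter passed it, but that of Hoxd1 lay above those of Hoxb6, Hoxa2 (2.06%) and Hoxa13 (1.58%).

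Promoters of Hox cofactors and regulators were measured in the same way. Of 38 listed genes 34 were open, as against 59.5% of all protein-coding genes. The TALE cofactors, homeodomain proteins that bind DNA with HOX proteins, were open in 9 of 9 cases. Of these, Pknox1 had a count in 45.0% of cells (103 CPM in set 1 and 93.4 in set 2). The MLL complex and its partners were open in 10 of 10 cases, with Kmt2a, the methyltransferase that keeps Hox genes active, in 42.8% (96.2 and 92.0 CPM) and Mllt10 in 36.7% (71.3 and 71.3). Of the Polycomb genes 13 of 14 were open, with Pcgf2 in 48.0% (119 and 105 CPM) and Eed in 38.2% (74.1 and 83.8), and Phc1 had no promoter peak.

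The ParaHox genes, relatives of the Hox genes that activate them in the embryo, stood apart from the other classes: Cdx2 was open in 5.91% of cells (8.81 and 11.5 CPM), Cdx4 in 1.99% (2.76 and 2.14), and Cdx1 had no promoter peak. Of the H3K27 demethylases, which remove the Polycomb mark, Kdm6a was open in 47.3% (104 and 106 CPM) and Kdm6b in 1.10% (0.843 and 1.53). None of the 36 regulators with enough counts, 0 in each direction, passed a log2 ratio of 0.5 with the pseudocount. Of all promoters 6.39% (set 1 higher) and 4.54% (set 2 higher) did. These were not matched for height: the median regulator promoter had a count in 28.4% of cells, against 10.5% over all promoters. With the pseudocount their ratios ran from -0.46 at Kdm6b to 0.43 at Ezh1, with a median of -0.03. Without it the ratio of Kdm6b, which had 26 counts, was -0.86 (-2.13 to 0.36).

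**Figure D5:**
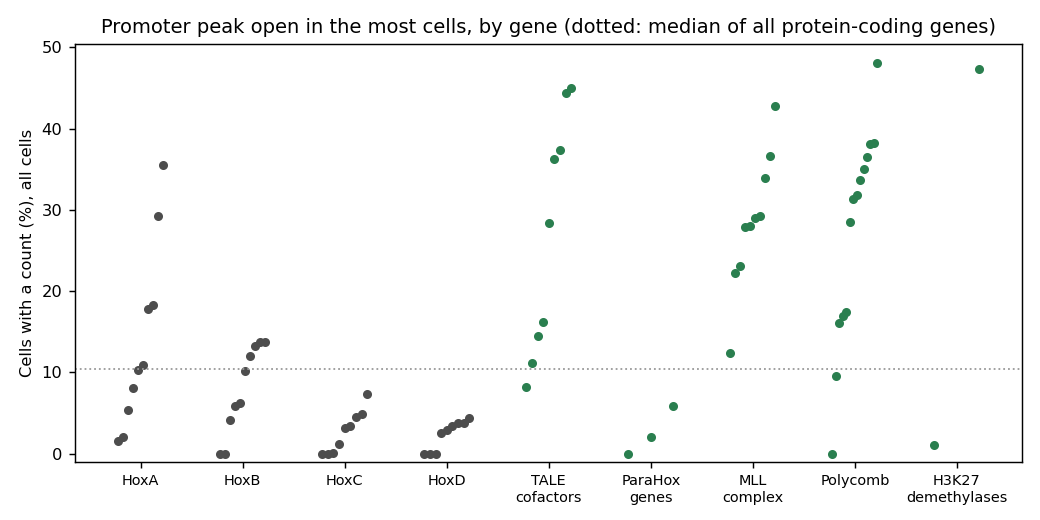
Share of all cells with a count in the promoter peak open in the most cells (y axis, percent) for each listed gene, by Hox cluster and by class of regulator, with the median of all protein-coding promoters (10.5%) dotted. Each point is 1 gene, and genes without a promoter peak are drawn at 0. Regulators reach 48.0% at Pcgf2, whereas the highest Hox promoter is that of Hoxa7 at 35.5%.

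Finally, short sequence words were searched on both strands in the central 300 bases of each peak. Median GC content was 57.5% in the 68 Hox peaks and 50% in all peaks, and the CpG ratio was 0.61 and 0.25. The letters TGATTNAT, bound by HOX-PBX pairs, occurred in 5 of 68 Hox peaks (7.35%) and in 3.41% of all peaks. The MEIS letters TGACAG occurred in 7 (10.3%) and in 21.5% of all peaks. The RUNX letters TGTGGTT occurred in 2, the GATA letters AGATAAG in 1, the PU.1 letters GAGGAAGT in 1 and the AP-1 letters TGANTCA in 2 of the 68, against 11.1%, 4.48%, 6.68% and 11.4% of all peaks. The consensus of CTCF, a protein that separates active from silent parts of Hox clusters, occurred in 0 of the 68 and in 4.70% of all peaks. Over whole Hox peaks, 30 to 7555 bp wide, HOX-PBX letters occurred in 9 of 68, MEIS in 19, RUNX in 8 and GATA in 5. PU.1 and AP-1 letters occurred in 8 each and CTCF in 0, with no share over all peaks counted at whole width. In the 250 bases upstream of the 22 genes with a sequence, HOX-PBX letters were found at Hoxa2 and Hoxd11 (9.09%, against 2.83% of the 32841 promoters). MEIS letters were found at Hoxa2 and Hoxa3 (9.09%, against 15.9%) and PU.1 letters at Hoxc4 (4.55%, against 2.44%). With 1 start per gene, the CTCF, GATA, RUNX and AP-1 letters were found at none. A match is not a bound site, and a word that is missing says nothing on the factor.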

How the data were processed

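Single-cell ATAC-Seq was performed by the authors on sorted LT-HSCs (10x Genomics). The authors made the deposited counts, whole numbers of cut sites per peak and cell barcode, with Cell Ranger ATAC 1.2.0. The submitters' processing notes name mm10 and GRCm38. No normalization of these counts by the authors is stated in the sources used here. A second table, with no peak positions, was not used here.

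Peaks were joined to GENCODE M21 genes (GRCm38). Coordinates are printed 1-based, taking the first base of a peak as 0-based in the table. Members and lists were chosen with earlier results of these data known. CPM was the sum over a set divided by its counts in peaks and multiplied by 1000000. Openness required a count in at least 5% of cells. Calls used peaks with at least 20 counts, a pseudocount of 1 CPM and a log2 threshold of 0.5. Log2 ratios printed with an interval had no pseudocount, and these intervals were exact binomial. Sums had exact Poisson intervals and shares Clopper-Pearson intervals, all at 95%. Depth was 22871046 counts in 1454 cells (224 to 136173 per cell). Cells were thinned with seed 7 to 4899 counts, the 10th percentile, for shares at equal depth. No doublet caller was run and no cell was removed from the sums. With 1 sample per group and the barcode suffixes not tied to samples, no test was made. Named were all genes with open promoters, the 3 peaks of each cluster with the most counts, peaks past the threshold, the genes with the most and fewest counts, and of the regulators the 2 of each class with the most widely open promoter. Marker and regulator lists were described by counts only. A named regulator and a marker are not reported here. Alternatives were other gene bodies, depths, scalings and thresholds. Scripts were tested on simulated data and used Python 3.11.15, numpy 2.4.6, scipy 1.17.1 and pandas 2.3.3.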

Additional observations from a re-analysis of the deposited data

How the results depend on the processing

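The order HoxA, HoxB, HoxC, HoxD in CPM and in the share of cells with a count, and the higher HoxB sum in set 1, kept their direction under every alternative run. CPM from HoxA to HoxD was 278, 201, 73.8 and 52.3 with each peak counted once per cell, and 258, 149, 40.8 and 28.2 with the principal transcript only. Without cells over 3 times the median it was 276, 174 and 62.3 for HoxA to HoxC. In thinned cells it was 268, 178 and 35.1 for HoxA, HoxB and HoxD. With 5000 bp upstream it was 207, 69.6 and 50.2 for HoxB to HoxD. Shares of cells from HoxA to HoxD were 73.2%, 60.2%, 31.8% and 25.8% without thinning, 79.7%, 64.5%, 30.7% and 23.6% at 2 times the depth, and 37.97%, 24.3%, 7.94% and 3.51% with at least 2 counts per cell. The log2 ratio of HoxC reversed to -0.15 with the principal transcript only and to -0.026 at promoter peaks, and the peak over the distal exon of Hoxc6 is not part of either. That of HoxD, whose interval included 0, was -0.12 in thinned cells and -0.02 at promoter peaks. That of HoxA was 0.20 in thinned cells, and that of HoxB 0.64 without deep cells. At 2% of cells 5 HoxC and 6 HoxD promoters were open (background 64.7%), and at 10% of cells 0 HoxC promoters were (50.8%). At a log2 ratio of 0.3, 3 regulators were higher in each set (background 14.2% and 11.4%). In thinned cells, an alternative added after seeing the data, 11 Hox peaks of 38 with enough counts were higher in set 1 (background 19.6%), with 2 of 12 in HoxA, 1 of 8 in HoxC and 2 of 5 in HoxD. Of 8 HoxC peaks 1 was higher in set 2 and of 5 HoxD peaks 2 were (background 17.1%), and the HoxB peak higher in set 2 was lost (0), as it was (0) with each peak counted once per cell. No paired analysis was possible because each group has 1 sample and the barcode suffixes are not mapped to samples. Depth limits the small peaks, of which 13 of 68 had under 20 counts.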

Other observations

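Between the listed genes, the spans of the clusters held 25 further peaks: 14 in HoxB, 4 in HoxC, 4 in HoxD and 3 in HoxA. The largest lay between Hoxb5 and Hoxb4 (chr11:96310815-96312509), with 28.0 CPM in set 1, 28.7 in set 2 and a count in 17.0% of cells, and was thus more widely open than any HoxB promoter at its principal start. Its log2 ratio was -0.03 (-0.26 to 0.20), unlike that of its neighbours on either side, which had 8.43 and 5.09 CPM (0.73, 0.23 to 1.24) and 12.4 and 7.84 CPM (0.66, 0.26 to 1.07). Of the 11 HoxB peaks between genes with at least 20 counts 7 were higher in set 1 and 0 in set 2 (background 18.3% and 18.0%). In HoxA 2 of 3 such peaks, both between Hoxa11 and Hoxa13, were higher in set 2, with 1.61 and 2.85 CPM and with 2.45 and 3.97 CPM. Their intervals included 0.

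Several of these peaks lay in noncoding RNA genes. In HoxD, a peak in Haglr (chr2:74749165-74750154) had 6.74 CPM in set 1, 8.96 in set 2 and a count in 5.57% of cells, more than any HoxD promoter. In HoxC, the peak called within Hotair, whose RNA is known for its link to Polycomb, covered 9 bp and had 0 counts in both sets. At this width it says little on the accessibility of Hotair.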
